A study of Rattus norvegicus with 8 samples.

Results

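Collagens, laminins and the enzymes that crosslink them were examined on 8 one-colour Arraystar rat lncRNA arrays, which carry mRNA probes beside their lncRNA probes. The genes were chosen by name and not by a cut on their signal, but with earlier results of these data known. They are the rat genes whose symbol belongs to the collagen chain (Col), laminin chain (Lama, Lamb, Lamc) or lysyl oxidase-like (Loxl) families, together with Lox, Eln, Fbn1, Fbln5, Postn, Tnc, Sparc, Dcn, Lum and Bgn. Through RefSeq accessions 32 probes were found for 32 of these genes, out of 13888 rat genes that 14274 mRNA probes could be matched to. Col1a1, Col4a2, Lamb3, Lox and Tnc were matched to no probe and are not analysed here.

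All samples came from male F344 rats at week 95 of a study of NNK, a carcinogenic nitrosamine of tobacco smoke. The 3 lung tumors and the 3 normal lung tissues all came from the NNK treatment group, and the labels call them matched. The other 2 arrays held clots from whole blood, 1 from the control group and 1 from the NNK treatment group. The tumors were typed by the study as moderately differentiated adenocarcinoma. The dose and route of NNK are not given in the sources used here, and lung of rats without NNK was not analysed here, so normal lung means lung tissue of NNK-treated rats. The tissues were whole, so fewer cells of a type and less RNA per cell cannot be told apart in any difference below.

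The extracellular matrix of the lung has 2 main forms. Basement membranes are thin sheets under epithelium and around vessels, built from a network of type IV collagen and a network of laminin that nidogens, perlecan and agrin hold together. Interstitial matrix holds rope-like fibrils of type I, III and V collagen and elastic fibres of elastin on a fibrillin scaffold, and lysyl oxidases make the covalent crosslinks that stiffen collagen and elastin. In carcinomas, matrix of both forms is known to be remodelled, with fibroblasts as the main source of fibrillar collagen.

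The lung arrays were similar in brightness, with a 75th percentile of the processed signal between 1191 and 1329, while it was 95.4 for control blood and 206 for NNK blood. Each lung array had 60.3% to 67.9% of all probes well above background, and the blood arrays had 53.3% and 53.9%. The scanner software marked 3.29% to 5.49% of the spots as outliers on the normal lung arrays and 9.7% to 16.2% on the tumor arrays. The normal lung arrays resembled each other closely, as did tumor arrays 2 and 3: among probes above background on both arrays, 1.39% to 2.08% of probes differed at least 2-fold between normal arrays and 1.14% between tumor arrays 2 and 3, against 5.62% and 6.54% between tumor array 1 and the other tumor arrays and 25.5% to 31.3% between a normal and a tumor array. The p-values below therefore measure the spread between these arrays, which may be technical, and results are also given with the normal arrays averaged to 1 sample and tumor arrays 2 and 3 averaged to 1 sample (counted once). So counted, the spread comes from 2 tumor samples, and the single normal sample is taken to be as variable as those. Normal arrays 1 to 3 and tumor array 1 shared a scan time, tumor arrays 2 and 3 shared another and the blood arrays a further one. All 9 probes for red blood cell markers were well above background on a blood array, but so were 6 of 9 probes for type 1 alveolar markers and 6 of 7 for type 2 alveolar markers. The free-text description of the NNK blood sample repeats that of tumor 3, while its title, source and tissue say blood. Of the matrix genes bright on every lung array, some, such as Col4a1, Lamb2 and Loxl1, were not above background on that array, and others, such as Bgn, Eln, Col1a2, Col3a1 and Postn, were.

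Of the 32 matrix genes, 26 stood well above background on every lung array (6 of 6) and 2, Lama1 and Lamc3, on none of them. A probe entered the test if 3 or more of the 6 lung arrays were above background for it and if it kept at least 2 arrays per group without an outlier mark. By this rule 27 genes passed the filter on dim signal and 22 were tested. Col13a1, Fbln5, Lum, Dcn and Sparc were not tested because of outlier marks, and Col11a2, Col2a1, Lama1, Lamb1 and Lamc3 were too dim. A gene was called when its limma p, adjusted by Benjamini-Hochberg over all 12471 probes tested, was 0.05 or under and its signal differed at least 2-fold.

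Of the 22 tested genes, 5 collagens fell in lung tumor, namely Col4a4, Col7a1, Col14a1, Col23a1 and Col4a1, and no gene rose. Over all probes tested 15.5% were called lower and 13.5% higher. At an adjusted p of 0.05 or under with no limit on the fold, 13 of the 22 genes were lower and 2 were higher, where all probes had 31.4% lower and 33.7% higher. Counted without a p-value, 17 of the 22 lay below 0, against 47% of all probes. The median log2 fold change of the 22 was -0.72, against 0.06 over all probes tested and 0.00 over the mRNA probes among them. With the near-identical arrays counted once, 2 genes, Col4a4 and Col7a1, kept their call of 23 tested, and over all probes 5.87% were then lower.

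**Figure D1:**
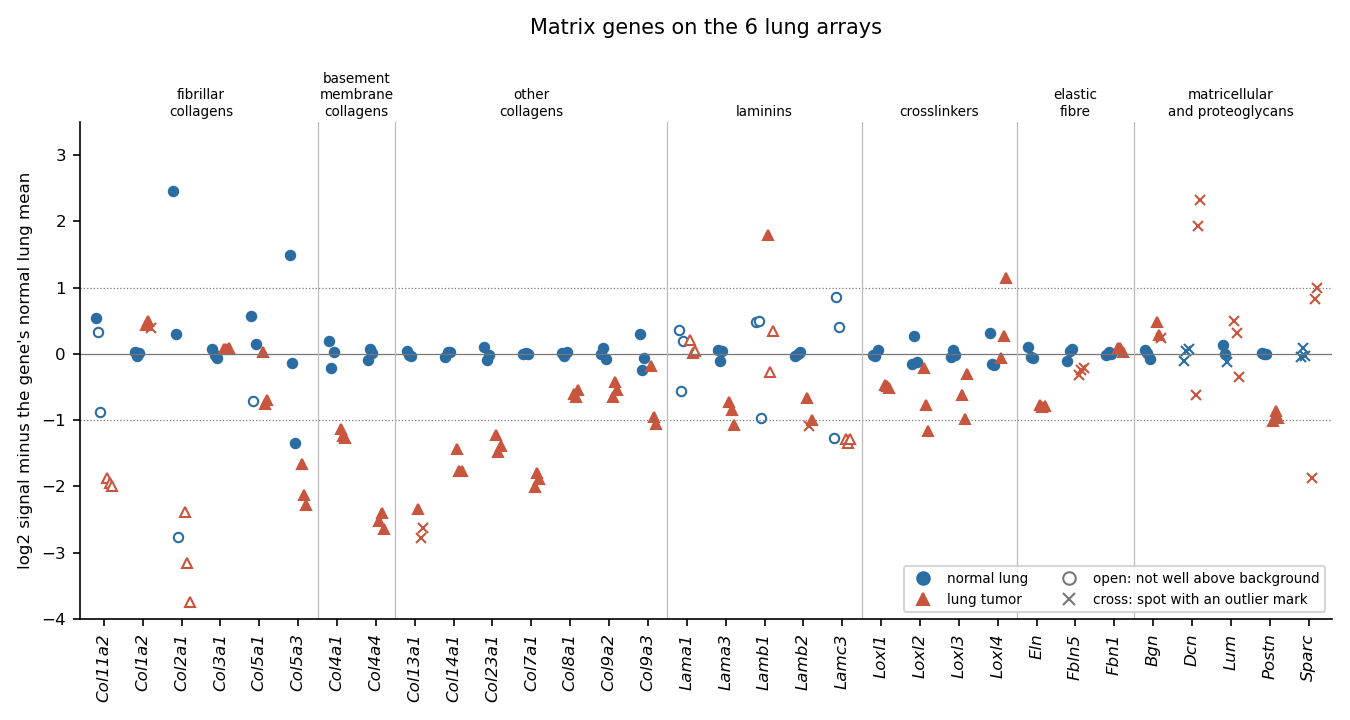
Log2 signal of each of the 32 matrix genes on the 3 normal lung arrays (circles) and the 3 lung tumor arrays (triangles), drawn as the difference from that gene's own normal lung mean and grouped by role. Dotted lines mark a 2-fold difference, open symbols lie near background and crosses are spots with an outlier mark. The tumor arrays lie below the normal arrays for Col4a4, Col7a1, Col14a1, Col23a1, Col4a1 and Col13a1, while the normal arrays of Col2a1 and Col5a3 and the tumor arrays of Dcn and Sparc lie far apart.

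To show which genes carry the fall, the 250 bases before the annotated start of the called genes are printed 5′ to 3′ for the gene's own strand, from RefSeq on build GRCr8. Capitals mark a GC box (GGGCGG, or CCGCCC on the other strand) or a CCAAT box (CCAAT, or ATTGG on the other strand). A TATA box (TATAAA, or TTTATA) was searched as well and occurs in none of these 4 windows. The motifs did not overlap each other. For Col14a1 no sequence is shown. The windows lie at chr16:84885347-84885596 (plus strand) for Col4a1, chr9:91323578-91323827 (minus strand) for Col4a4, chr8:118483114-118483363 (plus strand) for Col7a1 and chr10:36050077-36050326 (plus strand) for Col23a1.
Col4a1: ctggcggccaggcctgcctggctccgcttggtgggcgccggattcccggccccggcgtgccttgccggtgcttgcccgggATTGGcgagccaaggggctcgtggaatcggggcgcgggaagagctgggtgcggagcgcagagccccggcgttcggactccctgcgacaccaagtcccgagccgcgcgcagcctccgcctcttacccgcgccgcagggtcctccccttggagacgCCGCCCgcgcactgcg
Col4a4: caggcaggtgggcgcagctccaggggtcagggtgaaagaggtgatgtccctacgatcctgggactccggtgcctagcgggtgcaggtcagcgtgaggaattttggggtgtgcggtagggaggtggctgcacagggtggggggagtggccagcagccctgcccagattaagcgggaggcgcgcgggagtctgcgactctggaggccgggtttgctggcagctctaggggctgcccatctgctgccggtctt
Col7a1: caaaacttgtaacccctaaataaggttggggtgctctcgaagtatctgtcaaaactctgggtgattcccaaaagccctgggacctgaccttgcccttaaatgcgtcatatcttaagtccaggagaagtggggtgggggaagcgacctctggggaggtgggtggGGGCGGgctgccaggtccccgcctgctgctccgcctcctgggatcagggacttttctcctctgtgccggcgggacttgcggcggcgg
Col23a1: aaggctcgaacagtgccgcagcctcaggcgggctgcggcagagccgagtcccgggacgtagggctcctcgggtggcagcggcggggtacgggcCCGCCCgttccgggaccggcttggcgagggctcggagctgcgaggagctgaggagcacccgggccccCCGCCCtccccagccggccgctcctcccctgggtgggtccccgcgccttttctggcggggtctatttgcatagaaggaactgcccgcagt

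The Col4a1 window held 1 GC box and 1 CCAAT box, the Col7a1 window 1 GC box and the Col23a1 window 2 GC boxes, while the Col4a4 window held none of the 3 motifs. G and C made up 75.2% of the Col4a1 window, 73.2% of that of Col23a1, 66.4% of that of Col4a4 and 59.6% of that of Col7a1, where the median was 51.2% over all 33469 promoter windows and 62.0% over the windows of the matrix genes. A GC box was found in 30.5% of all windows and in 11 of 23 matrix genes with a window. A CCAAT box was found in 34% of all windows and in 5 of the 23, and a TATA box in 12.9% and in 3 of the 23, Col1a2, Col13a1 and Postn. These are matches of letters, with no measurement of binding behind them.

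Both type IV collagen genes on the array fell in lung tumor. Col4a4 (NM_001008332.1), a chain of the specialised type IV network found in alveolar and kidney basement membranes, gave log2 signals of 10.76, 10.93 and 10.86 on the normal arrays and of 8.33, 8.44 and 8.21 on the tumor arrays. The groups were separated by far more than the spread within either, and the difference of -2.52 (SE 0.084) corresponds to 5.75-fold lower signal (limma adjusted p = 1.08e-05). Counted once, the value was -2.52 with an adjusted p of 0.0393. Col4a1 (NM_001135009.1), a chain of the type IV network of nearly all basement membranes, was at 16.57, 16.16 and 16.41 on the normal arrays and at 15.24, 15.14 and 15.11 on the tumor arrays. It fell by 1.22 (log2 scale, with SE 0.12 and adjusted p = 0.000425, limma). Counted once, its adjusted p was 0.0637.

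Of the 7 other collagens, 3 fell among 6 tested. Col7a1 (NM_001106858.1) forms the anchoring fibrils that tie epithelial basement membranes to the tissue below. Its log2 signals were 8.44, 8.45 and 8.44 on the normal arrays and 6.43, 6.64 and 6.56 on the tumor arrays. The normal arrays hardly differed for Col7a1, and the log2 fold change was -1.90 (SE 0.069, adjusted p = 1.37e-05, limma). Counted once it was -1.93, with an adjusted p of 0.0418, and with the normexp background correction it was -1.23. Col14a1 (NM_001130548.1), a collagen on the surface of type I fibrils, was at 13.26, 13.32 and 13.32 on the normal arrays and at 11.86, 11.54 and 11.54 on the tumor arrays, a fall of 3.15-fold (adjusted p = 8.42e-05, limma, or 0.0588 counted once). Tumor array 1 had the highest tumor signal of Col14a1, still more than 2-fold below every normal array. Col23a1 (NM_181636.2), a collagen with a membrane-spanning part, was at 9.11, 8.91 and 8.98 on the normal arrays and at 7.78, 7.51 and 7.62 on the tumor arrays, a fall of 2.58-fold (adjusted p = 0.000117, limma, or 0.0629 counted once).

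Col8a1, a short-chain collagen of vessel walls, and Col9a2, a chain of the fibril-associated collagen of cartilage, were lower by under 2-fold, with log2 fold changes of -0.60 and -0.54 (adjusted p = 0.000355 and 0.00268, limma, or 0.152 and 0.182 counted once). The partner chain Col9a3 was near the dim end, with a log2 fold change of -0.73 that missed the adjusted threshold (adjusted p = 0.0622, limma). Without tumor array 1 it was at -1.01 with an adjusted p of 0.00742. Col13a1 (NM_001109172.1), the other collagen with a membrane-spanning part, lost its place in the test because its spots on tumor arrays 2 and 3 carried outlier marks. With those spots kept, its log2 signals were 13.86, 13.80 and 13.79 on the normal arrays and 11.48, 11.03 and 11.19 on the tumor arrays. The difference of -2.58 is the lowest value among the 27 genes, and it was -2.34 for the unmarked tumor array 1 alone. In the fit with all marked spots kept, 6 of 27 matrix genes were called lower and 0 higher, where 14.4% and 13.5% of the 15803 probes were.

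The fibrillar collagens showed no call in either direction among 4 tested. Col1a2 (NM_053356.1), a chain of type I collagen, the main fibril of connective tissue, was bright in every lung sample, at 14.77, 14.71 and 14.75 on the normal arrays and at 15.18, 15.24 and 15.13 on the tumor arrays. Its tumor signals were all above the normal ones, by 1.38-fold (log2 fold change 0.47, SE 0.063, adjusted p = 0.00312, limma), with the marked spot of 1 tumor array left out. Counted once, the adjusted p was 0.211. Col3a1 (NM_032085.1), the chain of type III collagen that accompanies type I, was at 16.82, 16.72 and 16.69 in normal lung and at 16.82, 16.82 and 16.83 in tumor. The groups overlapped, and the log2 fold change of 0.08 had a SE of 0.058 (adjusted p = 0.282, limma). Col5a1, a chain of the type V collagen that sets fibril width, was dim at 3.56 to 4.88 on the 6 arrays, and its groups overlapped (log2 fold change -0.48, adjusted p = 0.325, limma).

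Col5a3 and Col2a1 differed among the normal lung arrays themselves. Col5a3 (NM_021760.1), another type V chain, was at 10.001, 8.38 and 7.17 on the normal arrays and at 6.86, 6.38 and 6.23 on the tumor arrays. All tumor arrays lay below all normal arrays, but the normal arrays spanned more than the gap between the groups. The log2 fold change of -2.03 (SE 0.73) therefore missed the adjusted threshold (adjusted p = 0.0544, limma), while with the replicate number as a block its adjusted p was 0.0359. Without normal array 3 it was -2.70 with an adjusted p of 0.0146, and without normal array 1 it was -1.28 with 0.0583. Col2a1 (NM_012929.1), the fibrillar collagen of cartilage, was at 8.16 and 6.002 on normal arrays 1 and 2 and at 2.94, not well above background, on normal array 3. On the tumor arrays Col2a1 was at 3.32, 2.54 and 1.96, never well above background. The bound on its fall in tumor came to 7.38-fold, with 2 of the 3 normal arrays measured. It takes the signal of normal array 3 as read, though that was not well above background, so it is not a strict lower limit. This bound rests on normal array 1 most: it was 3.15-fold without that array, 6.66-fold without normal array 2 and 19.2-fold without the unmeasured normal array 3, an alternative added after the data were seen. Normal array 3 lay below tumor array 1, so the groups overlapped. Col11a2, the other cartilage fibril gene, was above background on normal array 1 alone, at 4.08, and on no tumor array, and no fold is given for it.

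**Figure D2:**
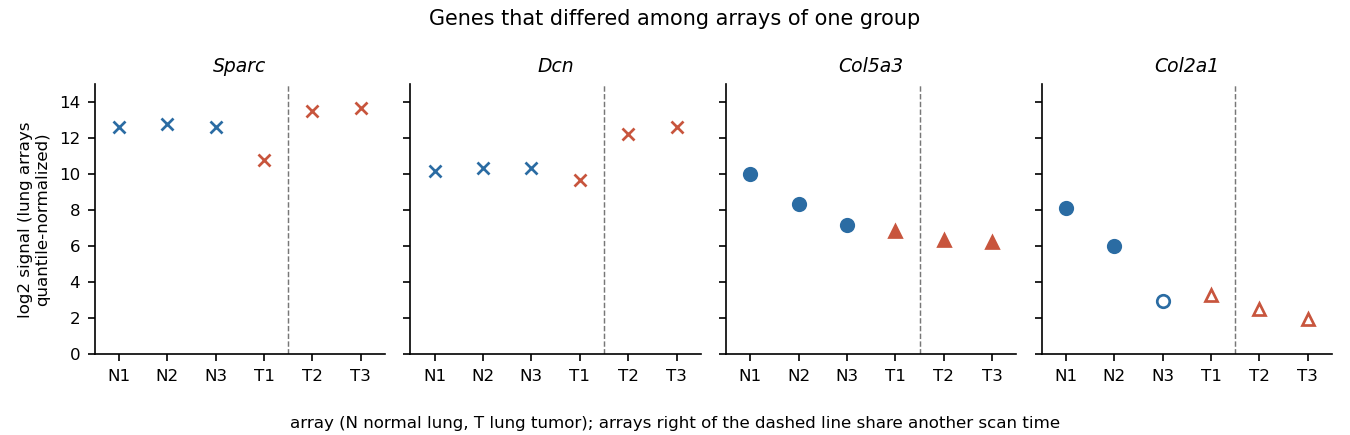
Log2 signal of Sparc, Dcn, Col5a3 and Col2a1 on each of the 6 lung arrays (N1 to N3 normal lung, T1 to T3 lung tumor), with crosses for spots with an outlier mark and open symbols for signals not well above background. The arrays to the right of the dashed line share a scan time that differs from that of the other 4. Sparc and Dcn are lower on tumor array 1 than on every normal array and higher on tumor arrays 2 and 3, and Col2a1 spans 8.16 to 2.94 within normal lung.

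Laminins were lower in tumor by less than 2-fold where they could be tested, with no call among 2 tested of 5. Lama3 (NM_173306.1), a chain of the laminin that anchors epithelial cells, was at 9.72, 9.55 and 9.71 on the normal arrays and at 8.93, 8.82 and 8.59 on the tumor arrays. The groups did not overlap, and the log2 fold change was -0.88 (SE 0.11, adjusted p = 0.0011, limma). Lamb2, a beta chain of mature basement membranes, had a log2 fold change of -0.84 (SE 0.12, adjusted p = 0.00374, limma). It passed the 2-fold limit under quantile normalization over all 8 arrays (-1.04) and in the authors' values (-1.14). Counted once, the adjusted p was 0.117 for Lama3 and 0.141 for Lamb2. Lamb1, the widely expressed beta chain, was above background on tumor array 1 alone, at 4.14, and Lama1 and Lamc3 gave no signal above background in lung.

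None of the 4 lysyl oxidase-like genes was called. Loxl1, which maintains elastic fibres, was bright, at 14.72 to 14.82 in normal lung and at 14.24 to 14.29 in tumor, and lower by 1.41-fold (adjusted p = 0.000733, limma). Loxl3 was lower by 1.55-fold (log2 fold change -0.64, adjusted p = 0.0235, limma). Loxl2, which acts on type IV collagen, was at 5.70 to 6.13 in normal lung and at 5.64, 5.09 and 4.69 in tumor, and missed the adjusted threshold (log2 fold change -0.72, adjusted p = 0.0619, limma). Loxl4 was at 4.12 to 4.60 in normal lung and at 4.22, 4.55 and 5.43 in tumor, with overlapping groups and a log2 fold change of 0.45 (adjusted p = 0.292, limma). Counted once, none of the 4 passed, with adjusted p values of 0.199 for Loxl1, 0.393 for Loxl2, 0.141 for Loxl3 and 0.627 for Loxl4.

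Of the elastic fibre genes, Eln was lower by less than 2-fold and Fbn1 passed neither limit. Eln (NM_012722.1), which encodes elastin, was at 16.89, 16.73 and 16.72 on the normal arrays and at 16.02, 15.97 and 15.99 on the tumor arrays. These groups were clearly apart, yet the difference stayed under 2-fold at 1.73-fold lower (log2 fold change -0.79, SE 0.066, adjusted p = 0.000244, limma, or 0.107 counted once). Fbn1, the fibrillin of microfibrils, was at 10.73 to 10.77 in normal lung and at 10.78 to 10.84 in tumor, a log2 fold change of 0.07 that missed the threshold (adjusted p = 0.272, limma). Fbln5, which helps elastin assemble, carried outlier marks on all 3 tumor arrays. With marked spots kept it was at 14.23 to 14.41 in normal lung and at 14.03 to 14.13 in tumor, a difference of -0.26 (adjusted p = 0.0246, limma).

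The matricellular proteins and small proteoglycans held the clearest disagreement between tumors. Postn (NM_001108550.1), encoding periostin, was at 16.36, 16.35 and 16.36 on the normal arrays and at 15.34, 15.50 and 15.39 on the tumor arrays. The arrays of each group were nearly alike, and the log2 fold change was -0.95 (SE 0.060, adjusted p = 8.73e-05, limma), just under the 2-fold limit. It passed that limit with the shift to the 75th percentile (-1.01), with quantile normalization over all 8 arrays (-1.16) and in the authors' values (-1.18). Counted once, the adjusted p of Postn was 0.0838. Bgn, which encodes the collagen-binding proteoglycan biglycan, was at 16.18 to 16.31 in normal lung and at 16.49 to 16.73 in tumor, higher by 1.31-fold (adjusted p = 0.0198, limma, or 0.301 counted once).

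Sparc and Dcn carried an outlier mark on all 6 lung arrays, so their values are given with the marked spots kept. Sparc (NM_012656.1), a collagen-binding matricellular protein, was at 12.64, 12.78 and 12.66 on the normal arrays, at 10.82 on tumor array 1 and at 13.52 and 13.68 on tumor arrays 2 and 3. Tumor array 1 lay below and the other tumor arrays above every normal array, so that the mean difference was -0.02 (SE 0.80, adjusted p = 0.986, limma). Without tumor array 1 Sparc was higher by 0.91 on the log2 scale (adjusted p = 0.000556, limma). Within the scan that held both groups, which sets tumor array 1 alone against the normal arrays, the Sparc difference was -1.87, with no replicate among the tumors. Dcn (NM_024129.1), encoding the proteoglycan decorin that coats collagen fibrils, was at 10.19, 10.34 and 10.38 on the normal arrays, at 9.68 on tumor array 1 and at 12.23 and 12.62 on the others. Its mean difference was 1.21 (adjusted p = 0.225, limma), with 2.13 without tumor array 1 (adjusted p = 0.00025) and -0.62 for tumor array 1 within the shared scan. Lum, encoding lumican, also marked on all tumor arrays, overlapped between the groups at 11.17 to 11.42 and 10.93 to 11.79. Tumor 1 and the scan time cannot be told apart in these differences between tumors.

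In the scan that held the normal arrays and tumor array 1, the log2 difference from the normal mean was -2.52 for Col4a4, -2.01 for Col7a1, -1.44 for Col14a1, -1.22 for Col23a1 and -1.14 for Col4a1. This sets 1 tumor array against the normal arrays and has no replicate among the tumors, so no p is given for it.

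**Figure D3:**
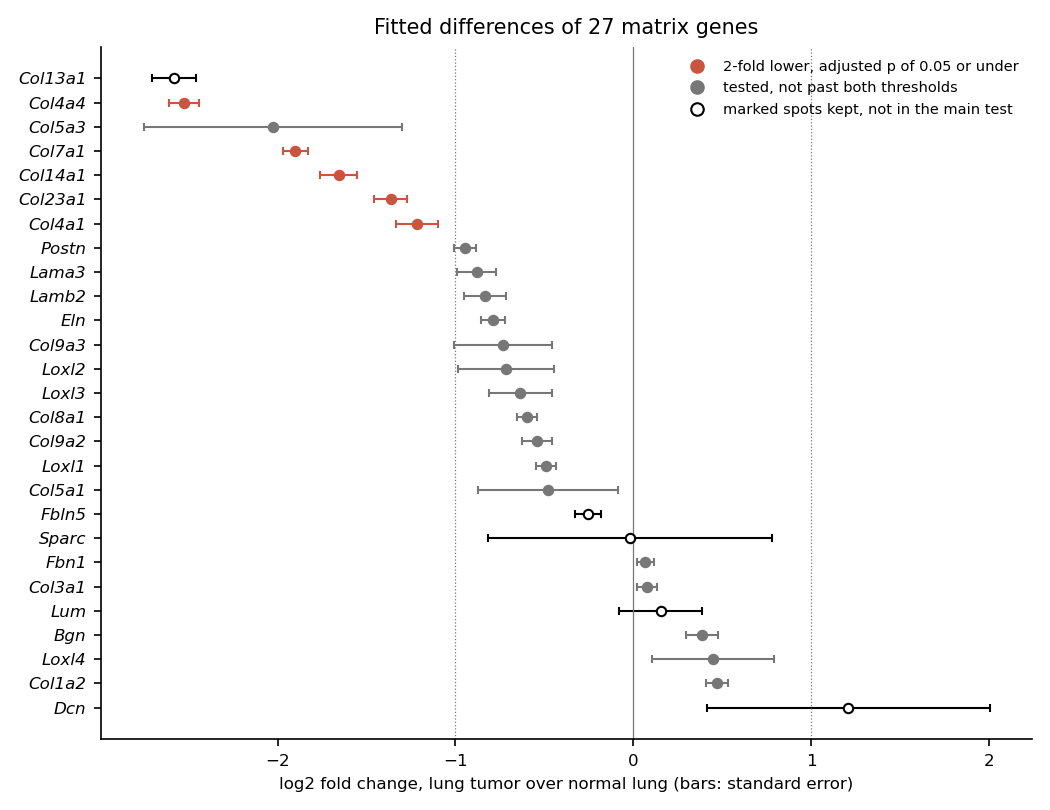
Log2 fold change of lung tumor over normal lung for the 27 matrix genes that passed the filter on dim signal, with the SE as bars. Filled points were tested (5 called lower, in colour), and open points are the 5 genes with outlier marks, fitted with the marked spots kept. Dotted lines mark a 2-fold difference. The 5 called genes lie between -1.22 and -2.52, and the widest bars are those of Dcn, Sparc and Col5a3.

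Partner genes were taken from 3 lists, for collagen synthesis and processing, for receptors of collagen and laminin, and for other components of basement membranes and elastic fibres. On the array 43 probes stood for 41 of these genes, and of 24 tested, 2 were called higher and 8 lower (13.5% and 15.5% over all probes), with a median log2 fold change of -0.32. Counted once, 0 of 30 were higher and 1, P3h2, was lower, where 4.69% and 5.87% of all probes were.

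In the synthesis list 2 of 13 tested probes were higher and 3 lower. P4ha1, the catalytic chain of a collagen prolyl hydroxylase, rose from 12.74, 12.60 and 12.52 on the normal arrays to 13.84, 14.04 and 14.12 on the tumor arrays (log2 fold change 1.38, SE 0.10, adjusted p = 0.00015, limma). P3h4, which takes part in the modification of collagen lysines, rose from 6.94, 6.66 and 6.41 to 8.28, 7.74 and 7.62 (1.01 with 1 marked tumor spot left out, adjusted p = 0.00748, limma), but reached 0.88 without normal array 3. P3h2, a prolyl hydroxylase that acts on type IV collagen, fell from 10.49, 10.60 and 10.57 to 9.0, 8.92 and 8.93 (log2 fold change -1.60, adjusted p = 1.35e-05, limma). Tll1, a protease that trims procollagens, fell by 2.17 on the log2 scale and the isomerase Fkbp14 by 1.05 (adjusted p = 0.000444 and 7.88e-05, limma). Serpinh1, the collagen chaperone, was at -0.29 and both probes for Plod2, a lysyl hydroxylase, were at -0.41 and -0.35. The called synthesis genes were thus split between both directions.

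Of the receptors 0 of 6 were higher and 2 lower. Ddr2, a receptor tyrosine kinase for fibrillar collagen, fell from 11.36, 11.26 and 11.29 to 10.06, 9.95 and 9.85 (log2 fold change -1.35, adjusted p = 5.11e-05, limma). Itga3, a chain of a laminin-binding integrin, was dim, at 5.85, 4.75 and 5.09 in normal lung and at 4.00, 3.60 and 2.02 in tumor, where 2 of 3 arrays were above background. Its log2 fold change was -2.02 (adjusted p = 0.0287, limma), and the call was lost without normal array 1 (-1.71, adjusted p = 0.0823), normal array 3 (-2.09, 0.0664) or tumor array 2 (-2.22, 0.0547). It was at -0.50 with the normexp background correction, at -1.43 without tumor array 3 and at -1.23 for tumor array 1 within the shared scan. Itgb1, the beta chain shared by most of these integrins, was lower by less than 2-fold (-0.81, adjusted p = 0.000154, limma).

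In the list of basement membrane and elastic fibre partners 0 of 5 were higher and 3 lower. Nid2, a nidogen that links laminin to type IV collagen, fell from 11.68, 11.65 and 11.59 to 10.10, 9.82 and 9.84 (log2 fold change -1.72, adjusted p = 4.79e-05, limma). Mfap2, a microfibril protein, fell by 1.42 on the log2 scale and agrin (Agrn), a heparan sulfate proteoglycan of basement membranes, by 1.19 (adjusted p = 6.11e-05 and 0.000155, limma). Among the tested partners of this list, Mfap5 (0.12) and Emilin1 (0.06) lay above 0. Many probes of these lists carried outlier marks, and with marked spots kept, 4 of 38 partner probes were higher and 13 lower, against 13.5% and 14.4% of all probes.

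Markers of lung cell types moved in the same samples, where 15.5% of all probes tested were called lower and 13.5% higher. Of 8 probes for fibroblast markers 4 were tested and 2 were lower, Pdgfra at -2.38 and Meox2 at -1.03. The log2 of the summed signal of all 8 probes, with marked spots kept, was 16.80 to 16.89 in normal lung and 15.21 to 15.30 in tumor. Each summed signal below likewise takes in all probes of its list and follows the brightest ones. For fibroblasts the brightest in normal lung were Tcf21, not tested because of outlier marks, and Pdgfra. Mfap5 is on this list and on a partner list. Among the fibroblast markers Fap, which is found on activated fibroblasts, was above background on no normal array and on all 3 tumor arrays, at 4.26, 4.61 and 4.14. It entered the test through the tumor arrays alone and was not called, and no fold or p is given. Of the 6 probes for endothelial markers 4 were tested and 3 were lower (Tek -2.74, Cldn5 -1.94, Emcn -1.37). Flt1, which was dim, was higher by less than 2-fold (0.50, adjusted p = 0.0385, limma). The summed endothelial signal was 17.83 to 17.88 in normal lung and 15.54 to 15.56 in tumor, with Tek as the brightest probe. Cdh5 was above background on no lung array. Of 9 probes for type 1 alveolar markers 5 of 6 tested were lower. The remaining one, Rtkn2, was above background on no normal array and on all 3 tumor arrays. It entered the test through the tumor arrays alone, so no fold is given. The summed signal of the 9 probes was 20.51 to 20.53 in normal lung and 18.63 to 18.70 in tumor. Smooth muscle markers (0 of 4 called, 15.86 to 15.94 and 15.55 to 15.85) and type 2 alveolar markers (0 of 6 called, 19.86 to 19.91 and 19.97 to 20.01) gave no call in either direction. The type 2 marker Sftpc was not tested because of outlier marks. With them kept it was higher, at 1.14 (adjusted p = 0.000258, limma), past both thresholds. The part of these cell types in the differences of the matrix genes was not tested. Of the red blood cell markers 4 of 7 tested were lower in tumor, with summed signals of 18.75 to 18.78 and 18.01 to 18.17. Of the other lists, 4 of 4 tested platelet probes, 1 of 6 T cell probes and 1 of 4 neutrophil probes were lower, and 0 of 4 macrophage probes were called. The platelet probes Gp9 and Ppbp were above background on the 3 normal arrays and on no tumor array, and so entered the test through the normal arrays. In the club and airway list 3 of 7 tested probes were higher and 1 lower. The higher ones were Cyp2f4 (1.08) and transcripts of Tp63 (1.03 and 1.00), a gene with several of the tested probes. The lower one was Tppp3 (-1.65), and Scgb1a1 was at -0.07. The brightest platelet marker, Pf4, was not tested because of outlier marks and was at 0.98 with them kept, and the summed platelet signal was 12.35 to 12.43 in normal lung and 12.93 to 13.16 in tumor.

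**Figure D4:**
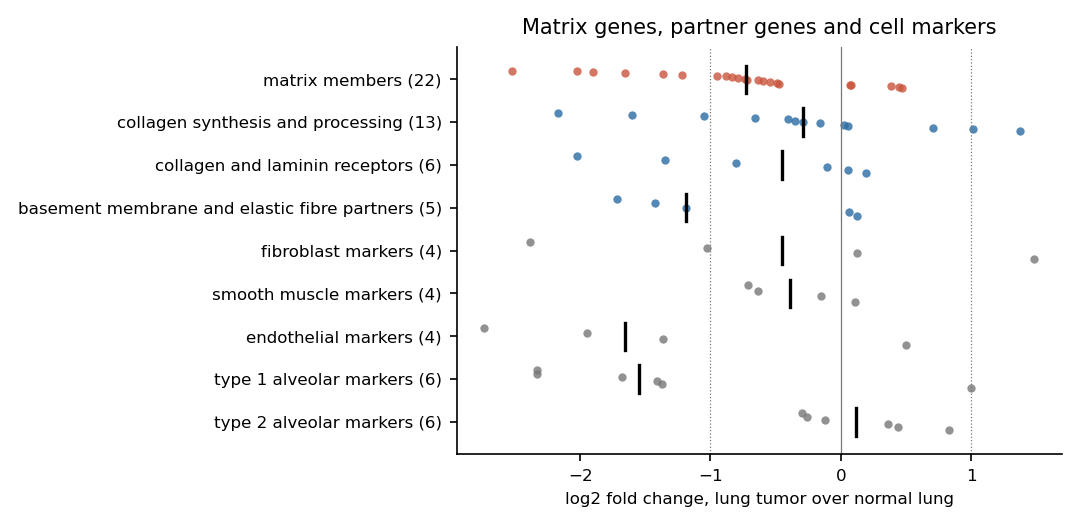
Log2 fold change of lung tumor over normal lung for the tested probes of the matrix genes, the 3 lists of partner genes and 5 lists of lung cell markers, with the number tested in parentheses. Each point is 1 probe, the black bar is the list's median and dotted lines mark a 2-fold difference. The medians are -0.72 for the matrix genes, -1.19 for basement membrane and elastic fibre partners, -1.66 for endothelial and -1.55 for type 1 alveolar markers, and 0.12 for type 2 alveolar markers.

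In blood 17 of the 32 matrix genes were well above background on the control array, 16 on the NNK array, 14 on both and 13 on neither. With 1 array per group there was no test. Of 18 genes compared, 2 were at least 2-fold higher on the NNK array, where 23.1% of the 14452 probes compared were, and 5 were at least 2-fold lower, where 19.1% were. The median log2 difference of the 18 was -0.52, against -0.11 over all probes compared. With each array shifted to its 75th percentile, which moved the median of all probes to -0.26, 2 were higher and 9 lower, and with the normexp background correction 0 and 1. The shares over all probes under these alternatives are not given here, so those counts are not set against them.

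Of the 5 lower genes, 2 were above background on both blood arrays. Bgn was at 12.26 on the control array and at 10.95 on the NNK array, a log2 difference of -1.31 that ran from -0.92 with quantile normalization over all 8 arrays, under 2-fold, to -2.11 with the 75th percentile shift. Col1a2 was at 9.82 and 8.76, a difference of -1.05 that was -0.92 with normexp and -1.41 with the 75th percentile shift. The other 3, Col13a1, Col7a1 and Loxl2, were measured on the control array alone and were at least 2.69-fold, 3.80-fold and 2.61-fold lower on the NNK array. Both higher genes were measured on the NNK array alone: Col3a1 at 5.35, at least 3.46-fold above the control array, and Dcn at 4.79, at least 2.34-fold above it. Among the genes measured on both arrays, the next largest fall after Bgn and Col1a2 was that of Lama3 (9.15 to 8.30, -0.84), and the values above 0 were those of Loxl4 (7.54 to 7.83, 0.29) and Lamb1 (4.58 to 4.65, 0.07). Eln was near level at 9.11 and 9.06. Bgn and Col1a2 were higher in lung tumor by under 2-fold and lower on the NNK blood array. Col7a1 and Col13a1 were lower in lung tumor, and in blood they entered the comparison through the control array alone.

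**Figure D5:**
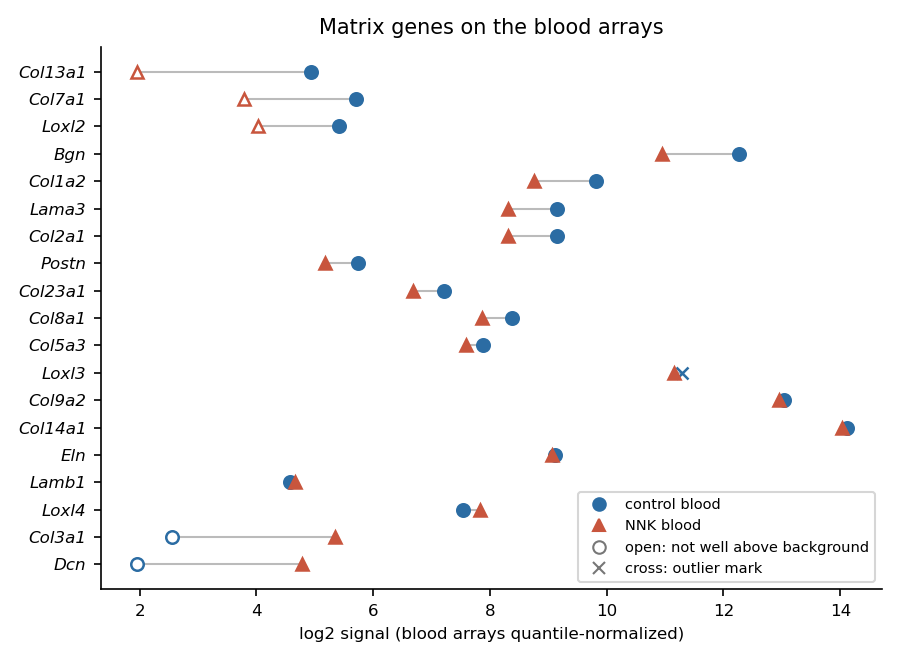
Log2 signal of the 19 matrix genes that were well above background on at least 1 blood array, on the control array (circles) and the NNK array (triangles), with open symbols for signals not well above background and a cross for an outlier mark. Lines join both arrays of a gene, with 1 array per group. Bgn and Col1a2 are the 2 genes measured on both arrays that differ at least 2-fold in this scaling (Bgn by -0.92 and so under 2-fold with all 8 arrays normalized together), and Col14a1, Col9a2, Loxl3 and Eln nearly coincide.

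The matrix genes in blood were also set against normal lung. The comparison was made under 3 scalings (each tissue normalized on its own, all 8 arrays together, and a shift to the 75th percentile), and a gene was counted when both blood arrays differed at least 2-fold from the normal lung mean the same way in all 3. Of 30 genes above background on at least 1 of these arrays, 14 were lower in blood, where 31.3% of 18761 probes were, and 5 were higher, where 21.0% were, and the remaining genes met neither condition. The 14 include Col3a1, Col4a1, Lamb2, Loxl1, Eln, Postn and Sparc, and Col4a1, Col4a4, Lamb2, Loxl1, Lum and Sparc were well above background on neither blood array. The 5 higher genes were Loxl3, Loxl4, Col9a2, Col2a1 and Lamb1. Lamb1 was above background on no normal lung array, so it entered this comparison through the blood arrays alone. Loxl3 was at 11.30 and 11.15 on the blood arrays with a normal lung mean of 6.46. Its spot on the control array carried an outlier mark, and with it kept the differences ranged from 4.84 to 8.54 over the scalings. On the NNK array, where Loxl3 had no mark, they ranged from 4.69 to 7.66. Col9a2 was at 13.04 and 12.95 in blood against 9.65 in normal lung, and Loxl4 at 7.54 and 7.83 against 4.28. Col14a1 was bright in blood too, at 14.11 and 14.02 against 13.30, but its distance from lung was under 2-fold in the first scaling (0.81). Tissue and scan time cannot be told apart in this comparison.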

How the data were processed

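Signals were measured on 8 one-colour arrays: 3 of normal lung tissue and 3 of lung tumor from NNK-treated rats, and 1 each of control and NNK blood. Per the file headers and labels, the deposited intensity values are processed signals of Agilent Feature Extraction 10.5.1.1, with background subtracted and no normalization between arrays. Log2 values from the authors, per the methods quantile-normalized over all arrays in GeneSpring GX, served as an alternative. The depth of an array has no count, and precision is limited by the number of arrays, by signals near background and by outlier marks.

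Control spots were dropped, and the log2 processed signals of the remaining 42136 spots went through quantile normalization, once for the 6 lung arrays and once for the 2 blood arrays. Outlier-marked spots were then removed, and a probe printed several times was averaged. Of 15803 probes above background on at least 3 lung arrays, 3332 lacked 2 unmarked arrays in a group and 12471 were tested by limma 3.58.1 in R 4.3.3 (lmFit and eBayes, two-sided), with Benjamini-Hochberg adjustment over all of them. SE is the standard error of a log2 fold change. Fits were tested on simulated data. Bounds set the brighter group's mean over all its arrays against, for each array of the dimmer group, the higher of its lowest signal above background and the gene's own signal.

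Groups were taken from the labels. Probes were named through RefSeq (93.2% of 15323 mRNA probes), and nothing was drawn from the old build of the headers. Matrix genes, partner lists and markers were chosen with earlier results of these data known. Every matrix gene is accounted for. Array values are given for Col1a2, Col3a1, Col4a1, Lama3, Eln, Sparc, Dcn, Postn, called genes of each role and up to 3 called partner genes per list and direction, in blood for the 3 largest rises and falls measured on both arrays, and for genes with outlier marks. Col5a3, Col2a1, Serpinh1, Plod2, Itgb1, Mfap5, Emilin1 and Fap were picked after their values were seen. The alternatives covered scaling, background correction, a floor, filters, outlier marks, the authors' values, other tests, blocks and each array left out.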

Additional observations from a re-analysis of the deposited data

How the results depend on the processing

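The 5 falls among matrix genes kept their direction under all 22 alternatives, and 0 matrix genes were called higher in any of them. Alternatives that change only the filter, the test or the adjustment of p leave these fold changes as they were, so the direction could not turn there. The number called lower was 8 in the authors' log2 values and 2 with near-identical arrays counted once, and lay between 5 and 7 in the others. Of partner genes, 1 was higher with quantile normalization over all 8 arrays, with normexp and with the methods' paired t-test after Benjamini-Hochberg adjustment, 4 in the authors' values and with outlier-marked spots kept, 0 counted once, and 1 to 2 with each array left out. Partner genes called lower numbered 13 in the authors' values, 13 with marked spots kept and 1 counted once. In blood 0 matrix genes were higher with normexp and 0 with both arrays required above background. Lower in blood were 9 with the 75th percentile shift, 1 with normexp and 2 with both arrays required, given without the shares over all probes.

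Some differences near 0 or resting on tumor array 1 turned sign. Sparc was at 0.034 with quantile normalization over all 8 arrays, at 0.021 in the authors' values and between -0.52 and 0.91 with each array left out, and Lum lay between -0.021 and 0.41 with each array left out. With the scan time as a block, which leaves 1 tumor array against the normal arrays, Dcn was at -0.62, Col5a1 at 0.023 and Loxl4 at -0.064. The cause was not tested. Same-numbered normal and tumor arrays deviated together by correlations of 0.143, -0.041 and 0.16, and the labels do not say that a number marks 1 rat, so the numbers were not used to pair the arrays. With the replicate block 6 matrix genes were called lower, with Col5a3 as the addition, and 0 higher, while 2 partner genes were higher and 8 lower. Signals near background limit Col11a2, Col2a1, Lamb1 and Itga3, and outlier marks limit Sparc, Dcn, Lum, Fbln5 and Col13a1 in lung and Loxl3 in control blood.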

Other observations

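Because Col2a1 and Col11a2, both cartilage collagens, were above background on some normal lung arrays, 6 further cartilage genes were looked up after those values were seen. Acan, the main cartilage proteoglycan, was above background on no lung array, and Cnmd was above background on normal array 2 alone, at 5.48. Hapln1, a link protein of cartilage, was above background on no normal array and at 4.78, 3.97 and 3.73 on the tumor arrays. It entered the test through the tumor arrays alone, and its normal signals were not well above background, so no fold or p is given. Matn1 was above background on tumor array 2 alone among the lung arrays and on both blood arrays. Chad was at 6.95, 6.96 and 6.995 in normal lung and at 10.09, 9.92 and 9.87 in tumor (log2 fold change 2.99, limma adjusted p = 5.43e-06). Cilp, not tested because of outlier marks, was at 9.41, 9.47 and 9.27 in normal lung and at 10.87, 10.83 and 10.94 in tumor. Chad thus rose in tumor and Hapln1 was measured there alone, while Col2a1 was not above background in tumor.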
